A study of Mus musculus with 2 samples.

Results

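The genes described here encode the ligands, receptors and transcription factors of the hedgehog pathway, namely Shh, Ihh, Dhh, Ptch1, Smo, Hhip, Gli1, Gli2 and Gli3. They were chosen by name, and each was read from the brightest array feature annotated to that single gene symbol. All 9 were found among the 19938 genes measured, and each was represented by 1 feature (a transcript cluster, the set of probes along 1 transcript unit), so that no second feature of the same gene was at hand. The RNA came from cells of mouse embryonic hearts on a C57BL/6 background at stage E14.5. Both samples carried Wnt1-Cre, a recombinase driver active in the neural crest, and R26tdTomato/+, a red fluorescent reporter that Cre switches on, and the tdTomato-positive cells were sorted as cardiac neural crest cells. One sample was Adam19+/+ and the other Adam19-/-, which lacks the membrane-anchored metalloprotease ADAM19. Each was hybridised to 1 Mouse Gene 1.0 ST array (n = 1 per genotype), so each difference below is that between 2 samples, with no replicate check and no test. The sample is defined by the Cre driver and not by a single cell type. The labels give neither the number of embryos behind each sample nor the deleted part of Adam19.

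Hedgehog proteins are secreted, lipid-modified ligands. Without ligand, the receptor PTCH1 keeps the membrane protein SMO inactive. GLI proteins, mainly GLI3, are then processed at the primary cilium into forms that repress transcription. Ligand binding to PTCH1 releases SMO, the GLI proteins then activate transcription, and Gli1, Ptch1 and Hhip are themselves among the genes they switch on, which makes these transcripts the usual readout of the pathway. In the developing outflow region, SHH is made by the pharyngeal endoderm and acts on neighbouring neural crest and mesoderm. DHH is a product of Schwann cells and IHH of maturing chondrocytes.

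The deposited values are signals on a log2 scale, in which a difference of 1 is a doubling, and all differences are Adam19-/- minus Adam19+/+. Adam19 was at 11.62 on the Adam19+/+ array and at 9.77 on the Adam19-/- array, a difference of -1.85, which is the direction its labels give. Over all genes the median difference was 0.01 and the central 95% of differences ran from -0.25 to 0.33. As a floor on dim signals the midpoint of all genes by mean signal, 8.01, was taken, and 10122 genes exceeded it on at least 1 array. This floor separates the brighter from the dimmer genes and does not mark detection. Smooth muscle, valve mesenchyme and autonomic neuron markers were above it for all members measured (6 of 6, 7 of 7 and 5 of 5). So were 6 of 7 markers of Schwann cells and glia, and also 7 of 7 cardiomyocyte markers. The samples also differed apart from Adam19. All 8 macrophage and leukocyte markers were higher in the Adam19-/- sample, with a mean log2 signal of 7.53 on the Adam19+/+ and 7.92 on the Adam19-/- array. The cardiomyocyte markers had a mean of 8.86 and 9.05, with 4 of 7 higher, 2 lower and 1 equal. Smooth muscle markers had a mean of 11.38 and 11.26, with 6 of 6 lower, and autonomic neuron markers of 10.16 and 10.37, with 4 of 5 higher. Endothelial markers had a mean of 7.89 and 8.01 and epicardial markers of 7.01 and 7.12. The 1.2-fold described below was reached by 5 of 8 macrophage and leukocyte, 2 of 7 cardiomyocyte and 2 of 5 autonomic neuron markers. It was also reached by 2 of 6 endothelial, 2 of 7 valve mesenchyme and 1 of 6 epicardial markers, but by no smooth muscle marker. Of all genes, 7.09% reached it. The 3 Y-linked genes measured were lower in the Adam19-/- sample, with differences from -1.62 to -1.17. Their part in the hedgehog results was not tested.

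Differences among the hedgehog genes were small. A difference of at least 1.2-fold in either direction was counted, a size reached by 7.09% of all genes (5.07% higher and 2.02% lower in the Adam19-/- sample) and by 5.19% of those above the floor. Of the 9 hedgehog genes, 1 reached it, namely Ihh, and none reached 1.5-fold, which 0.211% of all genes did. The Adam19-/- value was the higher one for 6 of the 9 genes and the lower one for 3, and their median difference was 0.05. Over all genes, 10303 were higher, 6808 lower and 2827 exactly equal. The signal of 5 hedgehog genes, Dhh, Ptch1, Smo, Gli2 and Gli3, was above the floor on both arrays, whereas Shh, Ihh, Gli1 and Hhip were under it on both. Among the 5 genes above the floor the median difference was also 0.05, beside 0.04 over all genes above it.

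**Figure D1:**
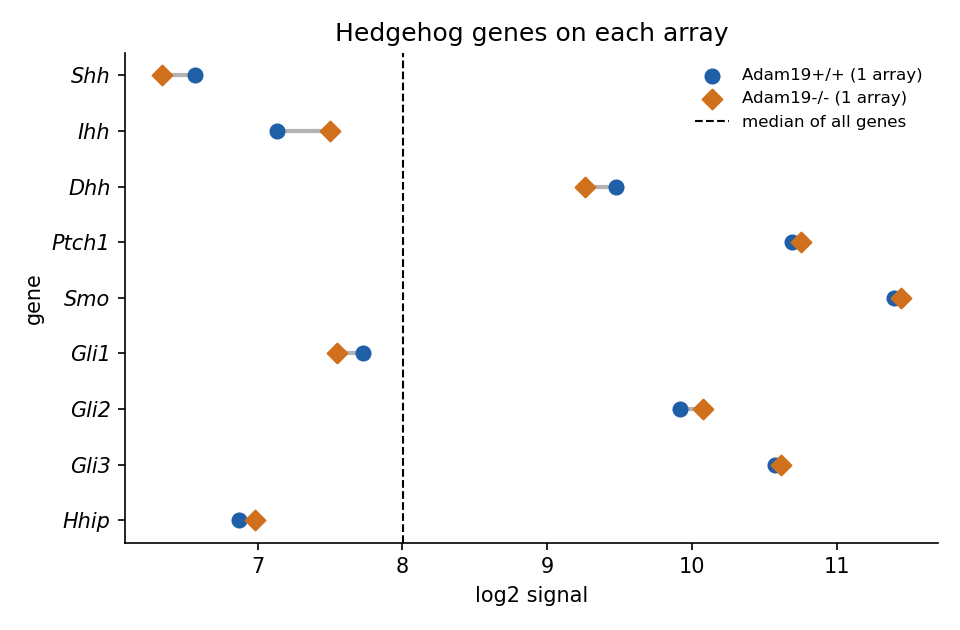
Log2 signal (horizontal axis) of each hedgehog gene on the Adam19+/+ array (circles) and the Adam19-/- array (diamonds), 1 array each, with the median of all genes, 8.01, as a dashed line. The points of Dhh, Ptch1, Smo, Gli2 and Gli3 lie to the right of the line on both arrays, and the widest gap is that of Ihh, at 7.14 and 7.50.

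Of the ligand genes, only Dhh exceeded the floor. The Adam19+/+ array gave Dhh a log2 signal of 9.48 and the Adam19-/- array 9.26. The Adam19-/- sample was the lower one by -0.22, or 1.16-fold. The spread of differences depended on brightness, so the genes were also ordered by mean signal and divided into 4 bands of equal size. In the band that held Dhh, with mean signals from 8.01 to 9.76, the central 95% of differences ran from -0.21 to 0.33, and Dhh lay just beyond its lower end. It was the single hedgehog gene outside the central range of its band, in which 12.4% of genes had a difference at least as large in either direction. Markers of Schwann cells and glia, cells known to make DHH, had a mean log2 signal of 10.15 and 10.07. Of 7 members, 6 were lower and 1 higher, with a median difference of -0.11. None of them reached 1.2-fold, beside 7.09% of all genes. Smooth muscle markers were lower by a like amount, with 6 of 6 lower and a median difference of -0.10. Fabp7, a fatty acid-binding protein of glial precursors, was at 13.45 and 13.30, and Mbp, a myelin protein, at 9.15 on the Adam19+/+ array and lower by -0.15. In RNA from a sorted population, fewer cells of a type and less RNA per cell cannot be told apart.

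Ihh had the largest difference of the 9 genes but a dim signal. The Adam19+/+ value was 7.14 and the Adam19-/- value 7.50, both under the floor. The Adam19-/- sample was higher by 0.36, or 1.29-fold, the 355th largest increase of all 19938 genes. Differences of dim genes spread more widely. Ihh lay in the band with mean signals from 5.99 to 8.01, where the central 95% of differences ran from -0.30 to 0.37 and 11.2% of genes reached 1.2-fold. A difference at least as large in either direction was held by 3.91% of the genes of that band, the smallest such share among the 9 hedgehog genes. The value of Ihh was inside the range of its band, near the upper end. Among chondrocyte markers, 5 of 8 were higher, 2 lower and 1 equal, and their mean log2 signal was 8.78 and 8.97. By at least 1.2-fold, 4 of them were higher and 1 lower, a size reached by 7.09% of all genes. Sox9, the transcription factor that starts cartilage formation, was at 10.65 and 11.23, and Hapln1, a link protein of cartilage matrix, at 8.72 and 9.30. Col9a1, a chain of cartilage collagen, was at 8.63 and 9.06. Acan, the main cartilage proteoglycan, ran the other way, at 9.93 and 9.63. A link between these markers and Ihh was not tested.

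Shh was dim on both arrays. Its log2 signal was 6.57 in the Adam19+/+ sample and 6.34 in the Adam19-/- sample, which differ by -0.22. In its band, the same as that of Ihh, 16.4% of genes had a difference at least as large in either direction. None of the 6 markers of pharyngeal and gut endoderm, the tissue that makes SHH near the heart, was above the floor, and their mean log2 signal was 6.41 and 6.30. Of the 6, 5 were lower and 1 higher, with a median difference of -0.14. By at least 1.2-fold, 1 of them was lower, a size reached by 7.09% of all genes in either direction. As a view of signals without expression, the 1027 olfactory receptor genes had a median of 4.88 and a 95th percentile of 6.15. All 9 hedgehog genes exceeded that percentile on at least 1 array, but so did 14602 of all 19938 genes. Of the 6 endoderm markers, 4 exceeded it, and a signal above it is no proof of expression. These values do not decide whether Shh was expressed in these cells.

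The receptor genes Ptch1 and Smo were well above the floor and almost equal in both samples. Ptch1, the ligand receptor and a pathway target, had a value of 10.69 on the Adam19+/+ and 10.75 on the Adam19-/- array, which differ by 0.06 or 1.04-fold. Smo, the signal transducer that PTCH1 holds inactive, was at 11.40 and 11.44, a difference of 0.04 or 1.03-fold. In their band, the brightest, 50.4% and 64.5% of genes had a difference at least as large as those of Ptch1 and Smo. Hhip, a membrane-bound decoy that captures ligand and is induced by the pathway, was at 6.87 and 6.98, under the floor on both arrays. Its difference of 0.12 was matched or exceeded in size by 39.5% of the genes in its band.

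The Gli genes differed in level against the floor and in direction. Gli2, which encodes the main activator of the pathway, had a value of 9.92 on the Adam19+/+ and 10.08 on the Adam19-/- array, which differ by 0.16 or 1.12-fold. Gli3, which encodes mainly a repressor, was at 10.57 and 10.61, a difference of 0.05 or 1.03-fold. Both were above the floor on both arrays and higher in the Adam19-/- sample. Gli1, an activator whose transcription depends on the pathway, was under the floor at 7.73 and 7.55, and lower in the Adam19-/- sample by -0.18, or 1.13-fold. In their bands 12.5%, 62.1% and 24% of genes had a difference at least as large as those of Gli2, Gli3 and Gli1. Set side by side, the readout genes did not share a direction, with Ptch1 at 0.06, Hhip at 0.12 and Gli1 at -0.18. Each of the 3 lay within the central range of its band.

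**Figure D2:**
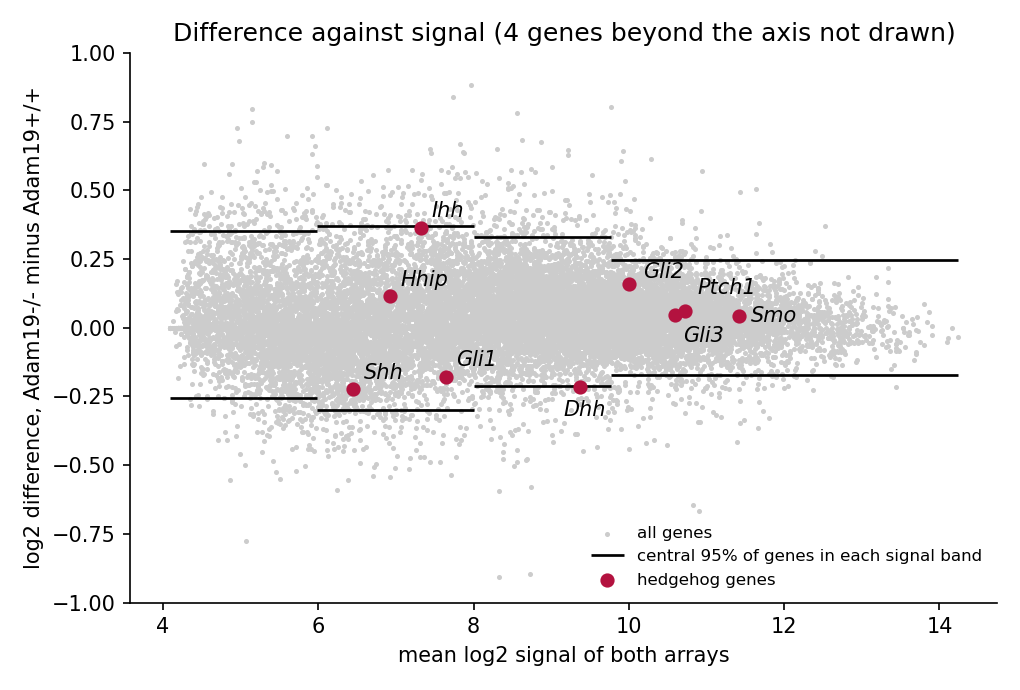
Difference in log2 signal, Adam19-/- minus Adam19+/+ (vertical axis), against the mean log2 signal of both arrays (horizontal axis) for all genes (grey points) and the hedgehog genes (red points), with the central 95% of differences in each band of the genes as black lines. A further 4 genes with differences beyond 1 are not drawn. Dhh lies at the lower line of its band and Ihh at the upper line of its own, and Ptch1, Smo, Gli3, Gli2, Hhip, Gli1 and Shh lie between the lines.

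The promoters of these genes were looked at for the sequence that GLI proteins bind. RefSeq promoter sequences (GRCm38.p6) were at hand for 7 of the 9 genes, and the 250 bases before the annotated start were searched on both strands for each. The full motif GACCACCCA was in none of the 7, in 0 of 56 other pathway genes with a promoter there, and in 0.255% of the 27025 genes with a promoter in the table. Its shorter core ACCACCC, which every full match also holds, was in 1 of the 7, Gli2, in 0 of the 56 other pathway genes and in 4.54% of all genes. The Gli2 match lies on the opposite strand, from 205 to 199 bases before that start, and is shown in capitals in the window at chr1:119053806-119053835 (minus strand). The bases before the annotated starts of Ihh, at chr1:74951673-74951922 (minus strand), and of Dhh, at chr15:98898563-98898790 (minus strand), are shown because these ligand genes had the largest difference and the difference beyond its band's range. For Dhh only the 228 searched bases outside the annotated gene are printed. Neither searched window held either motif.
Gli2: atccccctccaGGGTGGTgtccccccaccc
Ihh: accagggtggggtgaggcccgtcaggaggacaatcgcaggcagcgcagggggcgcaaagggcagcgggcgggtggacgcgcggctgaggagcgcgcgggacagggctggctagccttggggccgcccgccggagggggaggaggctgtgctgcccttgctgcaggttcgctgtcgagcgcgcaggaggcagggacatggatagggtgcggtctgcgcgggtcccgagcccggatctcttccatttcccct
Dhh: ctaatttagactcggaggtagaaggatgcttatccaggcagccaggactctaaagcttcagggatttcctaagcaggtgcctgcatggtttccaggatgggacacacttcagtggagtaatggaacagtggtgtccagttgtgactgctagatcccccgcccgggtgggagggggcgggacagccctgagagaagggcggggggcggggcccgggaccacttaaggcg
A match describes these letters only and shows no binding, and no match says only that the letters are not in the window.

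The other genes of the pathway were read in lists ordered by their place in it, and 73 of 79 were measured as single genes. Of the 73, 50 were higher, 20 lower and 3 equal. Above the floor were 59 of them, and of the 10122 genes above it, 6603 were higher, 3411 lower and 108 equal. The median difference of the 73 was 0.05. Of them, 3 or 4.11% reached 1.2-fold, all higher, beside the 5.07% of all genes that were higher by that size. Genes for lipidation and release of the ligand were all below 1.2-fold, a size reached by 7.09% of all genes. Of 8 measured, 7 were higher and 1 lower, and their median difference was 0.08. Disp1, which encodes the protein that releases lipid-modified ligand from the producing cell, was at 10.55 and 10.74, a difference of 0.19, and its second feature gave 0.09. Disp2, a relative of Disp1, was at 8.45 and 8.65.

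Of the co-receptors and other ligand-binding proteins, 4 were measured, 2 higher and 2 lower, with a median of 0.03. Boc and Gas1, co-receptors that help PTCH1 bind ligand, were above the floor on both arrays. Boc was at 11.01 on the Adam19+/+ array and at 11.13 on the other, 0.12 apart. Gas1 was at 11.01 and 11.10, a difference of 0.09. The other members measured were under the floor on both arrays. None of the 4 reached 1.2-fold, a size reached by 7.09% of all genes.

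Among genes listed as regulators of SMO and GLI inside the cell, 1 of 18 or 5.56% reached 1.2-fold, beside 7.09% of all genes. The gene that did so was Stk36, a kinase related to the fly pathway component Fused. The part of Stk36 in the pathway in these cells was not tested. The signal of Stk36 was 7.70 on the Adam19+/+ and 8.16 on the Adam19-/- array, higher by 0.46 or 1.37-fold. Stk36 passed the floor in the Adam19-/- sample but not in the Adam19+/+ sample. Of the 18, 12 were higher and 6 lower, and the median difference was 0.04. Sufu, the main inhibitor that binds GLI proteins, was at 10.56 and 10.63, and Iqce, a scaffold of the ciliary complex around SMO, at 8.37 and 8.53. Of 27 genes of the primary cilium and of transport along it, 19 were higher, 7 lower and 1 equal. The median difference was 0.05, and none reached 1.2-fold, beside 7.09% of all genes and 5.19% of those above the floor. The widest differences were those of the transport proteins Ift140, at 9.08 and 9.31, and Ift74, at 8.64 and 8.46.

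Genes known to respond to hedgehog signalling in other tissues were read beside the readout genes above. Of 16 measured, 10 were higher, 4 lower and 2 equal. The median difference was 0.03, and 2 or 12.5% reached 1.2-fold, beside 7.09% of all genes. Foxf1, a forkhead factor that hedgehog signals induce in mesenchyme, was at 10.26 on the Adam19+/+ and 10.56 on the Adam19-/- array, higher by 0.29 or 1.23-fold, and its second feature gave 0.38. Mycn, a growth-promoting factor, was at 8.54 and 9.02, a difference of 0.48 or 1.40-fold. Both respond to other signals as well. The cell cycle gene Ccnd1 was at 12.64 and 12.77, and the forkhead gene Foxc2 at 11.10 and 11.22. Bcl2, which protects cells from death, was at 10.60 and 10.59.

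**Figure D3:**
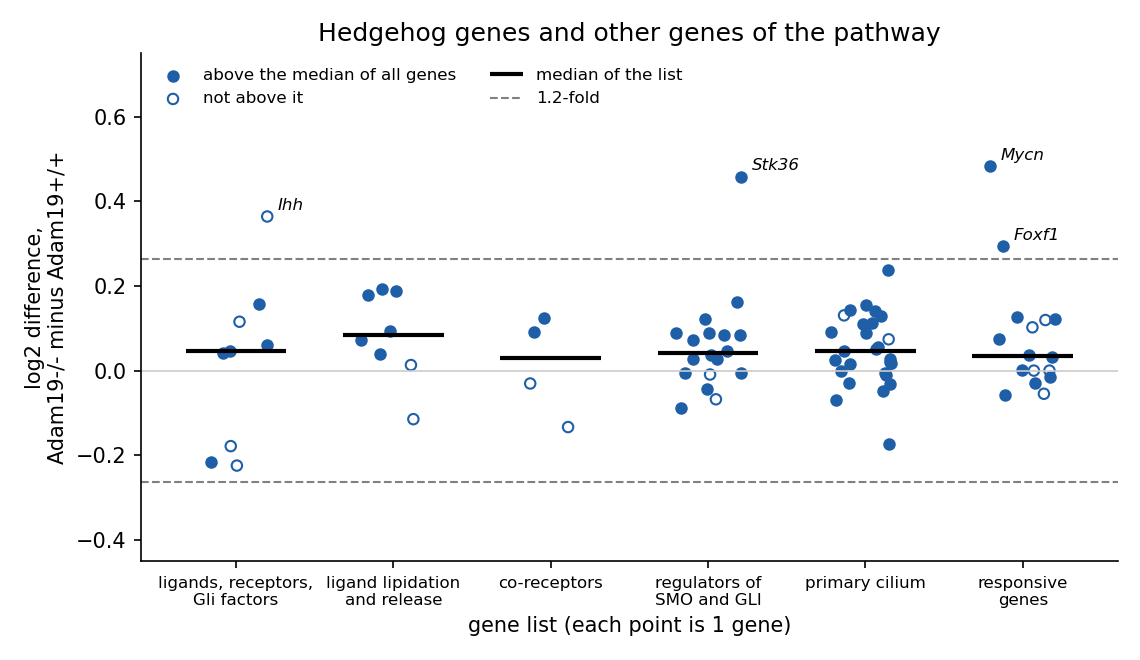
Difference in log2 signal, Adam19-/- minus Adam19+/+ (vertical axis), of each gene in the hedgehog group and in 5 lists of other pathway genes, with filled points for genes above the median of all genes on at least 1 array, black bars for list medians and dashed lines at 1.2-fold. Ihh, Stk36, Mycn and Foxf1 lie above the upper line, and no gene lies below the lower one.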

How the data were processed

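The authors deposited 1 table of log2 signal per transcript cluster, with a column for each of 2 Mouse Gene 1.0 ST arrays, per the labels' design text. No label or header states the background correction, normalisation or probe summary. The log base was inferred, since with natural logarithms the top signal would pass the 65535 that a scanner of this kind can record. Values were not normalised again. Of 28853 clusters, 21789 had 1 gene symbol in the 2016 platform annotation, 1621 several and 5443 none listed. Symbols were updated by Entrez identifier through RefSeq (GRCm38.p6), and the brightest single-symbol cluster stood for a gene. In all, 15.5% of clusters had exactly equal values in both columns.

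With 1 array per genotype no p-value was computed, and the number of arrays limits precision. The members and lists were chosen with earlier results of these data known, and the olfactory receptor comparison was added after the values were seen. Named genes were the 9 members, Adam19 and, from each list, those above the floor that reached 1.2-fold (up to 4), or the 2 with the largest difference. Sufu, Ccnd1, Foxc2 and Bcl2 were added after their values were seen, and of the marker lists only those of glia and cartilage have members named. Genes on the lists without a single-symbol cluster are not analysed here. The tools were pandas 2.3.3 and numpy 2.4.6, lowess from statsmodels 0.14.6, and matplotlib 3.10.9 under Python 3.11.15.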

Additional observations from a re-analysis of the deposited data

How the results depend on the processing

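The direction of all 9 hedgehog differences was kept under quantile normalisation and under subtraction of a lowess curve. The other settings could not have reversed any of them. Addition of 32 to the linear signal keeps the order of a gene's values. Averaging of a gene's clusters changes nothing for members with 1 cluster each. The median difference subtracted, 0.01, was smaller in size than the difference of every member. Ihh was the single one past 1.2-fold under each of these settings. Ihh ranged from 0.30 to 0.36, with the lowest value after addition of 32, and Dhh from -0.26 to -0.21. Restricting the genes to those above the floor left 5 hedgehog genes and 0 past 1.2-fold, and the 75th percentile left 4 and 0, since Ihh itself is dim. Of all genes kept, 5.19% and 3.19% were past it. With the 75th percentile, 0 genes of the list of SMO and GLI regulators and 1 responsive gene were past 1.2-fold, because Stk36 and Mycn were no longer included. Restriction to genes above the olfactory receptor percentile, chosen after seeing the data, left all 9 hedgehog genes and 1 past 1.2-fold. Of all genes kept there, 7.16% were past it. No paired analysis was possible because each genotype has 1 array.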

Other observations

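Ihh and Stk36, the hedgehog gene and the gene of the regulator list that passed 1.2-fold, lie close together on chromosome 1. In the order of the RefSeq gene table, 9 measured genes lie between them. None of the 9 reached 1.2-fold, beside 7.09% of all genes. Their differences ran from -0.11 for Prkag3 to 0.25 for Mir375, with 7 higher and 2 lower, and the Wnt ligand genes Wnt6 and Wnt10a of this stretch both differed by 0.03. These genes were picked after the values of Ihh and Stk36 had been seen. None of the 9 hedgehog genes lies on chromosome 11, which carries Adam19.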
